A study of Homo sapiens with 7 samples.

Results

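The regions described here are stretches of open chromatin beside a transcription start site that became more accessible after PHF19 was silenced in Kasumi-1 cells. They were chosen by the authors' deposited values and annotation: the mean read count was higher in the knockdown than in the control, the region was annotated as promoter within 1 kb, it did not cover the start itself, and it did not lie on chromosome 7. This gave 938 of the 8815 listed regions, at 877 genes, of which 433 lay upstream of the start and 505 downstream. The assay was ATAC-seq: a transposase cuts and tags the DNA that nucleosomes leave free. Kasumi-1, an established human line of acute myeloid leukaemia, has the fusion gene RUNX1-RUNX1T1. The control group was 4 libraries of cells transfected with a scrambled shRNA (their treatment label reads WT) and the knockdown group 3 libraries of cells transfected with a PHF19 shRNA, each from 10000 cells that had been under puromycin (2 µg/ml, added after 48 hours) for at least 24 hours. Nothing in the labels says whether the libraries of a group were separate cultures or how many shRNA sequences were used, so the authors' p-values rest on a spread among libraries that could be technical. No PHF19 transcript or protein level was analysed here.

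A promoter in active chromatin is usually organised around a stretch free of nucleosomes just upstream of the start, where general and sequence-specific transcription factors bind. The first nucleosome downstream of the start is usually well placed, and RNA polymerase II often pauses between the start and that nucleosome. PHF19 is a Polycomb-like protein that helps Polycomb repressive complex 2 (PRC2), which methylates lysine 27 of histone H3, to reach unmethylated CpG-rich DNA. Regions just upstream and just downstream of a start therefore report on different parts of a promoter.

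The deposited tables hold the authors' mean normalised read count over each group and over all libraries, a log2 fold of knockdown over control, and a false discovery rate (FDR), with no value per library. The means of each region rest on 4 control and 3 knockdown libraries, no SD can be given, and the depth of each library is unknown here. All values of single regions below are from the authors' deposited table, coordinates are as deposited and read as hg19, and distances run from the start to the nearest edge of the region. Since the knockdown means and the annotation chose the regions, their folds, means and FDR are a description and were not tested. The number of regions that the authors tested was recovered from the listed FDR, rank and p-value as 52675. Of these, 8615 were listed as increased, or 16.4%, but how many tested regions lay beside a start is unknown here. The smallest log2 fold in the increased list was 0.59, and its largest FDR was below 0.05. Whether a limit on the fold was also applied is unknown here. Such a limit would make the recovered number of tested regions too low.

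For the regions with the largest folds, the DNA just before the start of their genes shows how different these promoters are. The sequences below are the 250 bases before the start in RefSeq (GRCh38.p14), read 5′ to 3′ on the strand of the gene, and capitals mark matches to the motifs listed further on. They belong to the regions among the 10 largest folds of each side whose gene has a single RefSeq promoter entry (upstream regions within 250 bp of the start, then the largest downstream ones), a restriction added after the table was seen. The RefSeq start and the start used by the authors may differ, since the builds differ.
TMEM187 (chrX:153972504-153972753, + strand): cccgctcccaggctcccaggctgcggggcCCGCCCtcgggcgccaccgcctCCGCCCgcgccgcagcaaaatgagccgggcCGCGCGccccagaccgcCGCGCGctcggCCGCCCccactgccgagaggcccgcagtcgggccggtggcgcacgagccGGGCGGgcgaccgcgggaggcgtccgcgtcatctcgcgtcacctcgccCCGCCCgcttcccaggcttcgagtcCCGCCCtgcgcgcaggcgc
EIF4A2 (chr3:186783327-186783576, + strand): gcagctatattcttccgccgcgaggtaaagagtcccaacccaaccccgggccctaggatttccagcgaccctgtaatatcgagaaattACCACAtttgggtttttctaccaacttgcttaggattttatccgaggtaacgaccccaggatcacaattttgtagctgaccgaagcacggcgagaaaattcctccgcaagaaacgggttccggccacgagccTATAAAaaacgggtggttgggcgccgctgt
EIF1B-AS1 (chr3:40309699-40309948, − strand): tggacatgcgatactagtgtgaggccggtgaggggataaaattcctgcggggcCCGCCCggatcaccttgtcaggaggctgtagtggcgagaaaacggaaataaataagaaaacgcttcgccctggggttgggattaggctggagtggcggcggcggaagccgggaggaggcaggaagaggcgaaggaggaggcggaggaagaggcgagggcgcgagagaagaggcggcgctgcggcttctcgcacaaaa
EEF1A1 (chr6:73521033-73521282, − strand): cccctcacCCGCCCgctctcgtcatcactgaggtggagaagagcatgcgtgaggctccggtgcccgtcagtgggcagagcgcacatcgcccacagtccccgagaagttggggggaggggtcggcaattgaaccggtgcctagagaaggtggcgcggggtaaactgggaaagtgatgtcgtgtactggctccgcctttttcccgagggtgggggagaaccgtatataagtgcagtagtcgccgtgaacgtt
SPCS3 (chr4:176319716-176319965, + strand): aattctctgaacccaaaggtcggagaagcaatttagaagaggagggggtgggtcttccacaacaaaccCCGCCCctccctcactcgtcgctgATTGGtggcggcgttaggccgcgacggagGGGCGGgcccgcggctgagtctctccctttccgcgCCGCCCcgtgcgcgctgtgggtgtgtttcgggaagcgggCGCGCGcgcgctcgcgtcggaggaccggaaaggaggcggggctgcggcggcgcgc
GALNT7 (chr4:173168561-173168810, + strand): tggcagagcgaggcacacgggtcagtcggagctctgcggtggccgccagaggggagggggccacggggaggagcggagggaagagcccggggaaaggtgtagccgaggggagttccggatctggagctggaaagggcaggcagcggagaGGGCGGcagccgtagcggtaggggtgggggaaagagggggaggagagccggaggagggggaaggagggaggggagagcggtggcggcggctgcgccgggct

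The first 3 belong to upstream regions and the last 3 to downstream regions. GC content ran from 51.6% in the EIF4A2 sequence, which holds a TATA box (TATAAA) beginning 30 bases before the start, to 81.6% in that of TMEM187, which holds 6 GC boxes (GGGCGG on either strand). SPCS3 had 3 GC boxes and 1 CCAAT box, while EIF1B-AS1, EEF1A1 and GALNT7 had 1 GC box each. If the starts are the same, 67 bases of the TMEM187 region, 147 of the EIF4A2 region and 34 of the EIF1B-AS1 region fall inside the printed stretch. The downstream regions begin beyond it.

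Among upstream regions, the largest increase was at IGF1R, the receptor tyrosine kinase for insulin-like growth factors. Its region (chr15:99191427-99191827) lay 934 bp before the start and had a mean of 46.1 reads after knockdown against 10.5 in control cells, a log2 fold of 1.78 (FDR 6.33e-07). TMEM187, a transmembrane protein gene, followed with 45.5 and 13.0 reads at 183 bp (log2 fold 1.51, chrX:153237408-153237808). RCOR3, a corepressor of the REST family, had 64.3 and 19.5 reads only 35 bp before its start (1.504, chr1:211432273-211432673). The region of EIF4A2, a DEAD-box helicase of the cap-binding complex, lay 103 bp before its start and had 53.5 and 16.2 reads (1.43, chr3:186500858-186501258). CWC22, which links the spliceosome to the exon junction complex, had 41.8 and 12.9 reads at 16 bp (1.40), and NFIA, a nuclear factor I transcription factor, had 28.8 and 8.45 reads at 9 bp (1.37). SKIL, a repressor of SMAD signalling, had 35.3 and 10.1 reads at 923 bp (1.38). The antisense RNA gene EIF1B-AS1 had 19.4 and 4.74 reads at 216 bp (1.40), and it is paired head to head with EIF1B, so the region cannot be given to one of these genes alone. The same holds for RCOR3, which has the divergent neighbour LOC105372902 in RefSeq, and for KCNC4 with its divergent transcript, described next.

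KCNC4, a voltage-gated potassium channel gene with the divergent transcript KCNC4-DT (28.5 and 7.66 reads, log2 fold 1.47), and PTPRG, a receptor tyrosine phosphatase gene (32.8 and 9.71 reads, 1.41), complete the 10 largest upstream folds in the authors' deposited table. In these regions the knockdown mean was between 3.25 and 4.38 times the control mean. The deposited log2 folds are smaller than log2 of these ratios. Over all 938 regions the median deposited log2 fold was 0.92, against 1.17 for the difference of the log2 group means. The smallest FDR upstream belonged to ARRDC4, an alpha-arrestin gene, with 187 reads after knockdown and 75.4 in control cells at 39 bp before the start (log2 fold 1.21, FDR 6.41e-08, chr15:98503494-98503894). RCOR3 (FDR 5.45e-07) and IGF1R came next.

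Downstream of the start the largest folds were higher than upstream, and 8 of the 10 were at genes that also had a gained region over a start, which 12.8% of all protein-coding genes outside chromosome 7 had. The region of EEF1A1, the elongation factor that brings charged tRNA to the ribosome, began 426 bp into the gene and had 33.4 reads after knockdown against 5.23, a log2 fold of 2.11 (FDR 2.82e-07, chr6:74229915-74230315). SPCS3, a subunit of the signal peptidase, had 30.7 and 5.50 reads at 409 bp (1.82, chr4:177241499-177241899). SLC39A10, a zinc importer, had 26.6 and 5.20 reads at 862 bp (1.80, chr2:196522714-196523114) and a further region 269 bp from the same start (1.46). GALNT7, which adds N-acetylgalactosamine to proteins, had 42.2 and 9.29 reads at 724 bp (1.76, FDR 1.91e-06, chr4:174090628-174091028). TIMP2, an inhibitor of matrix metalloproteinases, had 26.2 and 5.17 reads at 197 bp (1.75). GAPDH, the glycolytic dehydrogenase, had 26.0 and 5.31 reads at 210 bp (1.74).

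HSPD1 and HSPA8, the mitochondrial and the constitutive cytosolic heat shock chaperones, had log2 folds of 1.59 (25.1 and 5.59 reads) and 1.58 (42.8 and 11.7 reads) in the authors' deposited table. HSPD1 shares its promoter head to head with HSPE1, and HSPA8 has the divergent neighbour LOC124902775. PIK3R1, the regulatory subunit of phosphoinositide 3-kinase, had 25.4 and 5.85 reads (1.57), and the corepressor gene CTBP1 had 47.4 and 13.3 (1.55). CTBP1 has the divergent transcript CTBP1-DT, and the regions of HSPD1, HSPA8 and CTBP1 cannot be given to one gene of the pair alone. Control means of 8 of these 10 regions lay below 10 reads, against 4 of 10 upstream. EEF1A1, GAPDH, HSPD1 and HSPA8 have many processed pseudogenes, and the treatment of reads matching several places is stated neither in the labels nor in the file headers. The smallest FDR downstream belonged to GBE1, the glycogen branching enzyme, with 128 and 43.5 reads 32 bp after the start (1.41, FDR 4.5e-08, chr3:81810518-81810918).

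**Figure D1:**
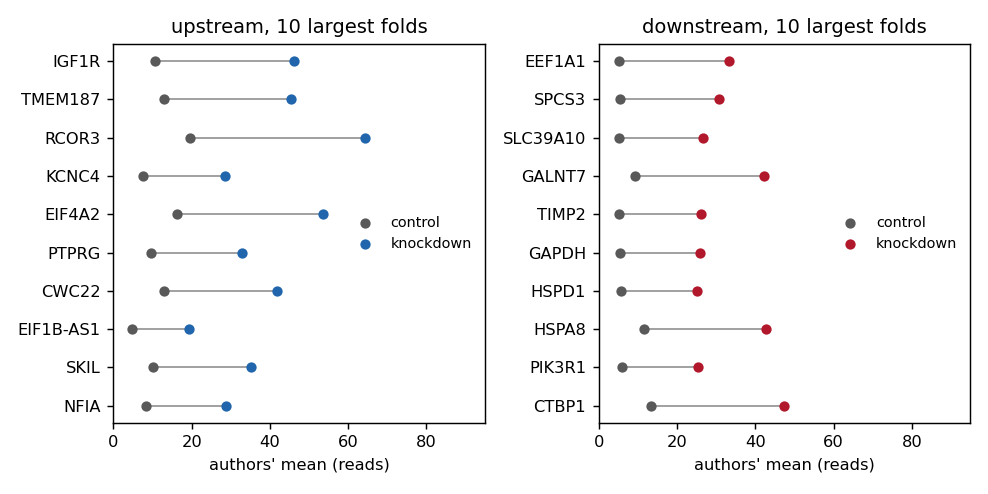
The authors' mean normalised read counts (x axis, reads) in the control (grey) and the knockdown (coloured) for the 10 regions with the largest log2 fold upstream (left) and downstream (right), 1 line per gene, in order of fold. The line between the points is the difference. Control means of 8 of the 10 downstream regions lie below 10 reads.

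The 2 sides differed in where the regions lay. Upstream regions were packed against the start: 170 of 433 (39.3%) had their edge within 100 bp, and the counts fell to 65 in the next 100 bp. Downstream regions were spread out, with 98 of 505 (19.4%) within 100 bp and 101 between 201 and 300 bp. The median distance was 169 bp upstream (quartiles 47 and 411) and 277 bp downstream (142 and 462). Most regions were 401 bp wide (91.7%), so an edge at the start places the middle about 200 bp away. Wider regions were 22 upstream (5.08%) and 56 downstream (11.1%). Upstream regions made up 46.2% of all 938 (95% Clopper-Pearson interval 42.9 to 49.4%, counting error only). Gained regions that covered the start were far more numerous, 2663 without chromosome 7, so regions beside the start were 26.0% of the 3601 gained in the 1 kb class (interval 24.6 to 27.5%).

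**Figure D2:**
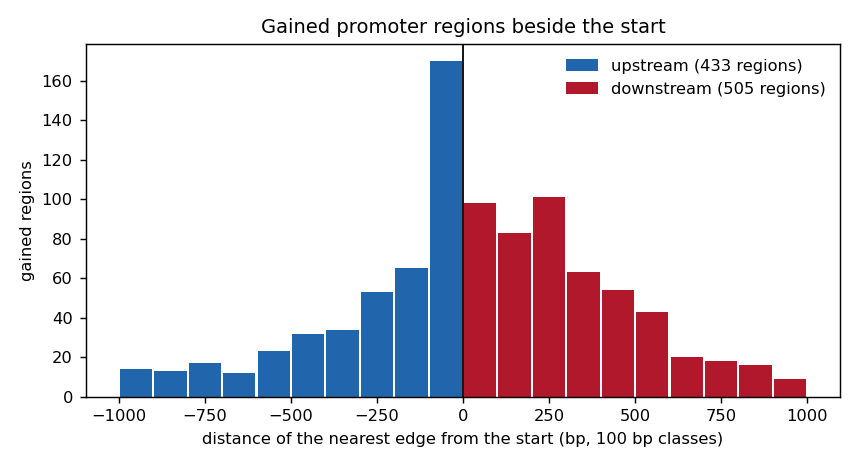
Number of gained regions (y axis) in 100 bp classes of the distance between the start and the nearest edge of the region (x axis, negative upstream, vertical line at the start). The tallest class is 1 to 100 bp upstream with 170 regions, while downstream the count stays between 83 and 101 up to 300 bp.

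The sides also differed in read count and, less, in fold. The authors' knockdown mean had a median of 47.0 reads upstream (quartiles 28.9 and 72.2) and 29.7 downstream (19.3 and 47.4), and the control mean 22.6 and 12.6. The median log2 fold was 0.87 upstream (quartiles 0.76 and 1.01) and 0.95 downstream (0.83 and 1.07), a difference of 0.077. From the difference of the log2 group means it was 0.20, and among regions with a log2 fold of at least 1 it was −0.001. A log2 fold of at least 1 was reached by 122 upstream regions (28.2%) and 201 downstream regions (39.8%), while 216 (49.9%) and 223 (44.2%) had an FDR up to 0.01. The fold was smaller where the read count was larger, on both sides. All listed regions had an FDR below 0.05, and with few reads a larger fold is needed to pass. The smallest log2 fold in the increased list was 0.59, so small folds are missing at any read count. The trend with read count therefore cannot be told apart from the way the list was filtered. Among regions with a mean over all libraries of 20 to 40 reads the median log2 folds were 0.87 and 0.89, and among those of 40 to 80 reads they were 0.82 and 0.82. Over 80 reads the order turned, with 0.78 for 40 upstream and 0.75 for 7 downstream regions, and up to 10 reads the medians were 1.02 and 1.06. The part of read count in the difference between the sides was not tested.

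**Figure D3:**
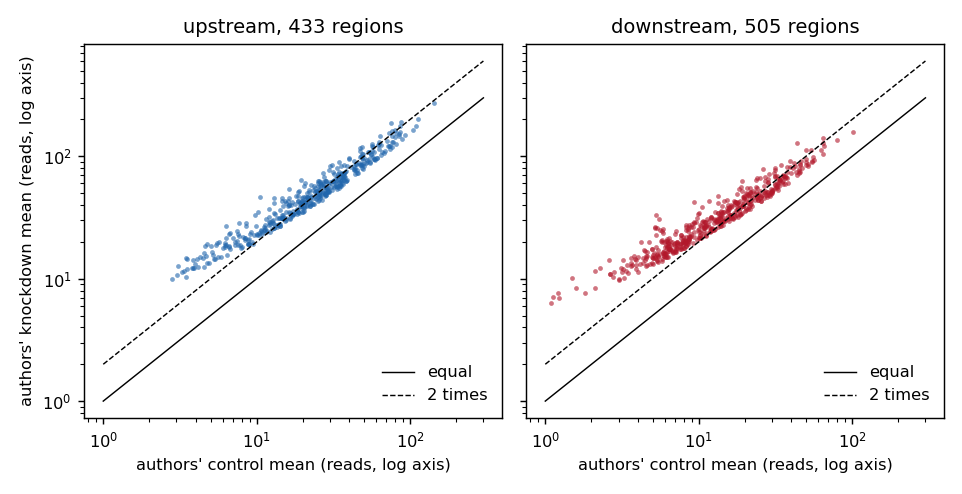
Authors' mean read count in the knockdown (y axis) against that in the control (x axis), both on log axes, for the 433 upstream (left) and 505 downstream regions (right), 1 point per region. The solid line marks equal means and the dashed line a knockdown mean 2 times the control mean; all points lie above the solid line, as the selection requires, and the downstream cloud reaches to lower counts.

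**Figure D4:**
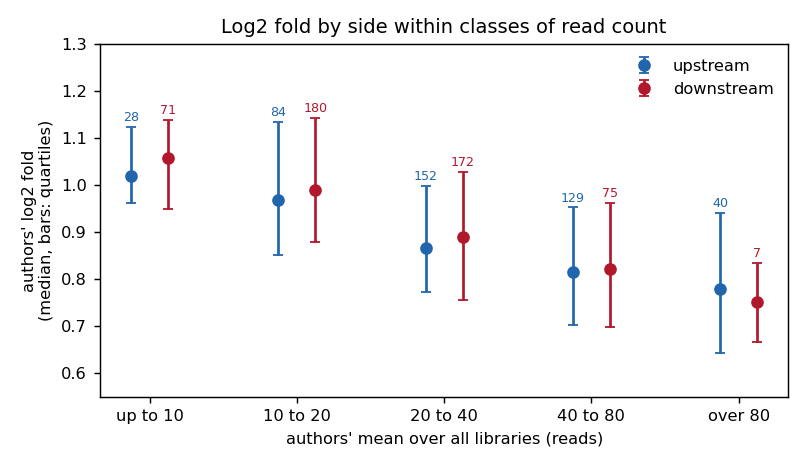
Median authors' log2 fold (points) with quartiles (bars) by class of the authors' mean over all libraries (x axis, reads), upstream in blue and downstream in red, with the number of regions above each bar. Within a class the medians of the sides differ by at most 0.039.

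Read counts fell with distance on both sides. Upstream, the median of the mean over all libraries was 40.1 reads within 100 bp and 22.2 beyond 500 bp, and the median log2 fold was 0.86 and 0.96. Downstream the corresponding values were 29.6 and 16.5 reads, and log2 folds of 0.91 and 0.98. Regions that covered the start had a median of 37.5 reads and a log2 fold of 0.86, close to upstream regions within 100 bp. Gained promoter regions 1 to 3 kb away (249, of which 117 upstream) had 16.2 reads and 0.94, close to downstream regions beyond 500 bp. At the outer limit of 1 kb, the last regions inside were at SLMAP (992 bp upstream, log2 fold 0.62) and MIDN (993 bp downstream, 0.98). Those just outside were at HES1 (1004 bp, 0.69) and DCUN1D4 (1001 bp, 1.08). At the inner limit, regions of MSANTD4 and INTS13 lay 1 bp from the start, with 190 and 86.6 reads (1.05) and 47.4 and 22.1 reads (0.91).

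Many genes with a downstream region had a gained region over a start as well. This was so for 159 of 495 genes with a downstream region (32.1%, 95% Clopper-Pearson interval 28.0 to 36.4%) and 71 of 421 with an upstream region (16.9%, 13.4 to 20.8%). Over all protein-coding genes outside chromosome 7 the share was 12.8%, just below the upstream interval. The genes with a region also include noncoding ones. The share grew with distance on both sides, from 7.06% within 100 bp to 36.7% beyond 500 bp upstream and from 6.12% to 47.2% downstream. At 251 to 500 bp it was 22.6% upstream and 41.9% downstream. A region close to a start leaves little room for another, not overlapping, region of 401 bp over that start. Upstream regions lay nearer to the start. The growth with distance and the gap between the sides therefore cannot be told apart from this limit of room. EEF1A1, SPCS3, SLC39A10, TIMP2, GAPDH, HSPA8, PIK3R1 and CTBP1 were among the downstream genes with such a companion, whereas of the 10 largest upstream folds 1 gene, PTPRG, had one. These shares come from the contrast that chose the regions and were not tested.

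Regions on both sides were found at 39 genes. In 33 of them both regions flanked the same start, and 30 of these had no gained region over a start of the gene. The gap between the flanking regions was under 401 bp at 17 of the 33 starts, which leaves no room there for another region of the usual width, and its median was 313 bp. The larger fold was downstream in 26 genes and upstream in 13, while the knockdown mean was higher upstream in 27. DYRK1A, a kinase encoded on chromosome 21, had 89.6 reads after knockdown and 34.4 in control cells 744 bp upstream (log2 fold 1.23) and 22.9 and 5.26 reads 192 bp downstream (1.49). EIF4A2 combined its upstream region with one 409 bp downstream (24.0 and 9.29 reads, 1.05), so that here the upstream fold was the larger. RCOR3 had a downstream region 775 bp from another of its starts (log2 fold 0.99). TMEM144 (log2 folds 1.16 upstream and 1.29 downstream), FBXL17 (1.27 and 1.05) and MAP4K4 (0.92 and 1.36) were the other genes with large sums, and the control mean of the downstream MAP4K4 region was only 1.49 reads. Of the 877 genes in the authors' deposited table, 819 had 1 such region and 3 had 3.

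Those 3 genes encode transcriptional regulators. ZBTB20, a zinc finger repressor, had regions 97 and 131 bp upstream of different starts (log2 folds 0.99 and 1.09) and one 79 bp downstream (1.12). NFE2L2, which encodes the oxidative stress factor NRF2, had one 268 bp upstream (1.01) and 2 downstream, at 119 and 46 bp (0.97 and 0.91). SKIL had a second upstream region at 395 bp (0.77) and one 466 bp downstream (0.79). At NFE2L2 the upstream region and the one 46 bp downstream flanked the same start, with a gap of 313 bp. The region at 119 bp was assigned to another start of the gene and lies upstream of the first, so its side depends on which start is used. Another listed start of the same gene lay within 1 kb of 19 upstream and 29 downstream regions, and 7 and 4 of them would change side at that start. The transcript used by the authors was shorter than 0.5 times the RefSeq gene for 77 upstream regions (17.8%) and 39 downstream regions (7.72%).

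Of the gene lists, immediate early genes had the largest share of members with an upstream region. These genes, switched on within minutes by growth factors or stress, had one at 7 of 37 members (18.9%) and a downstream region at 3 (8.11%), while 2.01% and 2.41% of 19118 protein-coding genes outside chromosome 7 had one. Upstream, DUSP1, a MAP kinase phosphatase, had 45.6 reads against 16.2 (knockdown and control, log2 fold 1.26, 792 bp), and the zinc finger factor EGR1 had 96.8 and 39.8 reads (1.15, 104 bp). The AP-1 subunit gene FOS (45.7 and 21.5 reads, 0.93) and the salt-inducible kinase gene SIK1 (46.4 and 21.6 reads, 0.92) had upstream regions within 41 bp of the start. FOS had a second region 135 bp downstream with the larger fold (1.20). MCL1, an anti-apoptotic BCL2 relative, had 20.1 and 6.09 reads 251 bp downstream (1.25), and ZFP36L1, an RNA decay factor, 52.6 and 29.9 reads (0.70). In all, 13 of the 37 (35.1%, against 12.8% of all protein-coding genes) had a gained region over the start. Any gained region within 1 kb was found at 20 (54.1%, against 15.9%).

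Counts for the lists of the protein synthesis machinery were small on both sides. Of 19118 protein-coding genes, 460 (2.41%) had a downstream and 384 (2.01%) an upstream region. Translation factors had downstream regions at 4 of 48 genes and upstream ones at 2: besides EEF1A1 and EIF4A2 these were EIF4B (log2 fold 0.85), EIF3F (0.76) and, upstream, EIF2S3 (0.81). Of 19 aminoacyl-tRNA synthetases, TARS1 (26.2 and 8.23 reads, 1.26) and CARS1 (0.89) had downstream regions and none had an upstream one. Cytosolic ribosomal proteins had gained regions over the start at 33 of 77 genes (42.9%, against 12.8% of all protein-coding genes). Regions beside the start were at 3, RPS12 (0.72) and RPS14 (0.69) upstream and RPL27A (0.94) downstream, or 3.90%, near the 4.23% of all protein-coding genes. Splicing factors had 4 downstream, led by SNRPB (10.9 and 2.65 reads, 1.17) and HNRNPH1 (1.14), and 2 upstream, HNRNPD (0.84) and SRSF1 (0.70), of 56 genes. Chaperones had 2 of 35 downstream (HSPD1 and HSPA8) and 1 upstream, DNAJB1, the HSP40 cochaperone (122 and 56.4 reads). The mitochondrial ribosome had 3 downstream (MRPL34, 0.96, MRPL54, 0.70, and MRPL48, 0.65) and 1 upstream (MRPL39, 0.95) of 73 genes. The proteasome had 1 of 34, PSME4 upstream (0.77). A region on either side was at 10.4% of translation factors, 10.5% of synthetases, 10.7% of splicing factors and 8.57% of chaperones. It was at 5.48% of the mitochondrial ribosome and 2.94% of the proteasome, against 4.23%. Gained regions over the start were at 39.6%, 42.1%, 37.5%, 48.6%, 21.9% and 23.5% of these lists in the order named, against 12.8%. A high share over the start was thus not particular to ribosomal proteins.

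Among Polycomb genes, 3 of 14 PRC2 genes had a region (21.4%), and all 3 had it downstream. Over all protein-coding genes 4.23% had a region on either side. EED, the subunit that recognises trimethylated lysine 27, had 78.2 reads against 26.1 in control cells 171 bp into the gene (log2 fold 1.40, FDR 1.95e-06, chr11:85955977-85956377). PHF19, the silenced gene, had 72.7 and 30.9 reads at 644 bp (1.10, chr9:123638562-123638962) together with a gained region over a start. These are chromatin values and do not check the knockdown. LCORL, which encodes a further PRC2 accessory protein, had 39.1 and 16.5 reads at 754 bp. PRC1 genes had a region at 3 of 24 (12.5%), among them RYBP upstream (0.81) and YAF2 downstream (0.83). Other chromatin modifiers had upstream regions at 8 of 78 genes (10.3%), led by TET3, which oxidises 5-methylcytosine (21.4 and 7.02 reads, 1.15), the remodeller subunit gene ARID2 (80.8 and 33.3 reads, 1.14) and the H3 lysine 4 methyltransferase gene KMT2B (62.9 and 25.4 reads, 1.11). The downstream ones were at 5 genes (6.41%), with KDM3B (0.99) and SETD2 (0.91) the largest in the authors' deposited table. Over all protein-coding genes 2.01% had an upstream and 2.41% a downstream region. Gained regions over the start were at 4 of 14 PRC2 genes (28.6%) and 6 of 24 PRC1 genes. They were also at 24 of 78 chromatin modifiers (30.8%), against 12.8% of all protein-coding genes. A high share in these lists was thus not particular to regions beside the start.

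Haematopoietic transcription factors had 4 upstream regions and 1 downstream among 40 genes. PBX3, a HOX cofactor (101 and 47.7 reads, log2 fold 0.96), the ETS factors ETV6 (45.1 and 20.8 reads, 0.94) and FLI1 (29.3 and 15.3 reads, 0.77), and TCF3, the E2A factor (0.68), lay upstream, and LYL1 (0.74) lay downstream. A gained region over the start was found at 3 of the 40 (7.50%, against 12.8% of all protein-coding genes). Cell cycle genes had 4 upstream, among them E2F3 (0.99) and CDKN2A (12.4 and 4.16 reads, 0.92), and 3 downstream, led by the CDK inhibitor gene CDKN2C (38.4 and 15.8 reads, 1.05), of 51. The apoptosis list had BCL2 upstream (43.2 and 18.5 reads, 1.04) and MCL1 downstream, of 34. NF-kappaB and interferon genes had ICAM1 upstream (0.80) and SOCS1 (1.01) and NFKBIA (0.70) downstream, of 46. Vesicle trafficking had SRP54 upstream (0.90) and SPCS3 downstream, of 73. No gene of the lymphoid (22), erythroid (16) or epithelial (16) marker lists had a region beside the start. The markers KIT, CD34 and RUNX1T1 of Kasumi-1 cells had 2, 2 and 3 increased regions elsewhere, the markers MPO and CD33 had 0, and lists of changed regions cannot check the cell type. A region on either side was found at 12.5% of the haematopoietic factors, 13.7% of cell cycle genes and 5.88% of the apoptosis list. The share was 6.52% for NF-kappaB and interferon genes and 2.74% for vesicle trafficking. Over all protein-coding genes it was 4.23%, a share at which short marker lists may hold none. The lists were not tested, and most counts are small.

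**Figure D5:**
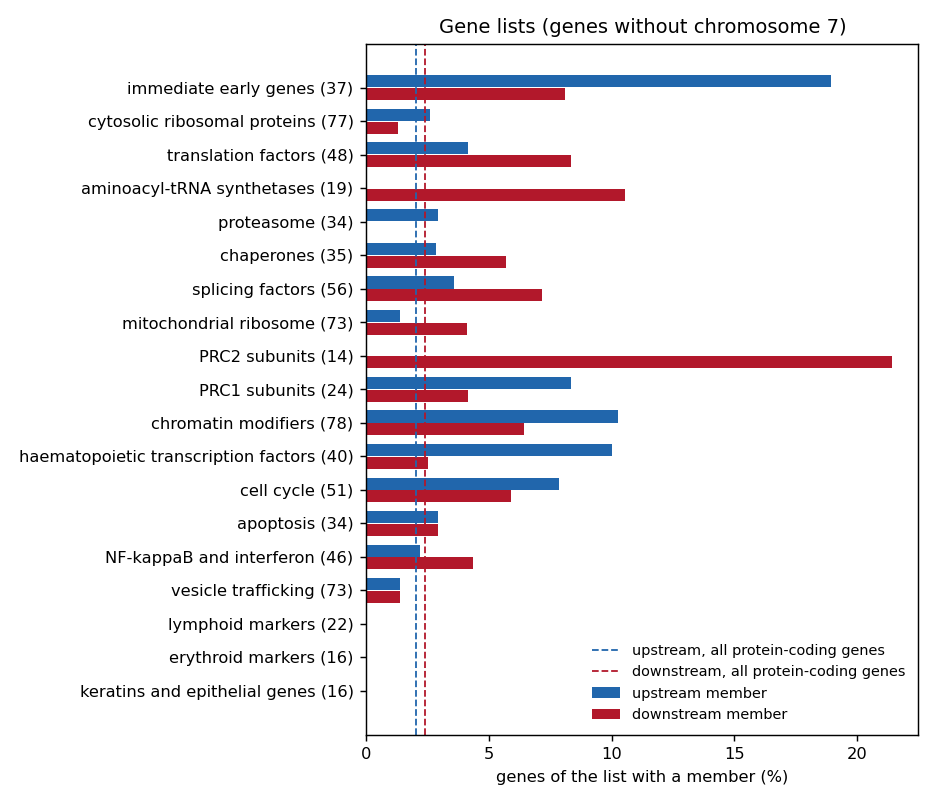
Share of the genes of each list (number of genes in brackets, chromosome 7 left out) with an upstream (blue) or downstream (red) gained region beside the start (x axis, percent). Dashed lines mark the same shares over all protein-coding genes, 2.01% and 2.41%; immediate early genes reach 18.9% upstream and PRC2 subunits 21.4% downstream, the latter with 3 of 14 genes.

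Most regions belonged to protein-coding genes, 394 upstream and 470 downstream. Long noncoding RNA genes had 22 and 29. MicroRNA genes had 11 upstream and 3 downstream, and since the start of a microRNA gene in such annotation is that of its hairpin, these sides say where the hairpin lies and not where transcription begins. A divergent neighbour in RefSeq, a gene on the other strand whose start lies within 1 kb, was found for 25.6% of 344 genes with an upstream region (interval 21.1 to 30.5%), and 28.5% of 424 with a downstream one (24.3 to 33.1%). Among protein-coding genes the shares were 24.9% and 26.2%, against 22.3% of all protein-coding genes in the table and 32.5% of those with a gained region over the start. The intervals of the sides overlap.

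Motifs were looked for on both strands in the RefSeq promoters (250 bases before to 50 after the start), which were found for 733 of the 877 genes, and motifs may overlap one another. The GC box GGGCGG, bound by SP and KLF factors, was in 67.8% of 587 promoter entries of upstream genes, 63.0% of 662 of downstream genes, and 56.3% of those of all protein-coding genes. For genes with a gained region over the start it was in 68.0%, so a high share is not particular to regions beside the start. The CCAAT box CCAAT, bound by NF-Y, was in 31.3%, 32.8% and 34.7%. The ETS core CCGGAAG was in 11.1%, 13.9% and 12.8%, and in 21.2% for genes with a gained region over the start. The RUNX site TGTGGT was in 12.1%, 8.16% and 11.3%, the AP-1 site TGANTCA in 6.47%, 5.14% and 6.15%, and the TATA box TATAAA in 8.52%, 8.16% and 9.47%. The run CGCGCG was in 32.5% and 27.8%, against 21.4%, and in 30.0% for genes with a gained region over the start. The E-box CACGTG was in 8.52%, 11.3% and 8.34%, the cAMP response element TGACGTCA in 2.04%, 2.27% and 2.26%, GCGCATGCG of NRF1 in 1.87%, 2.87% and 2.36%, and AAGATGGCG of YY1 in 3.92%, 3.17% and 2.41%. Median GC content was 66.7% upstream and 66.0% downstream, against 62.3%, and 65.3% for genes with a gained region over the start. The entries describe the gene's promoter and not the region, which for downstream genes lies mostly outside the window, and genes with several entries count more than once. Among genes with 1 entry (212 upstream, 289 downstream), the ETS core was in 18.4% and 19.7% (15.1% of all such protein-coding genes) and the AP-1 site in 2.83% and 2.77% (5.74%). The downstream shares of the cAMP response element and the NRF1 motif were 4.15% (2.82%) and 4.50% (2.88%) there. For genes of 1 entry with a gained region over the start, these motifs, in the order named, were in 27.2%, 3.21%, 4.05% and 5.59%. In the 250 bases before the start alone, the YY1 motif was in 1.53% and 0.76%. No share over all protein-coding genes is given for this shorter window, so the drop cannot be read as particular to these genes.

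Regions beside the start were spread over 22 chromosomes. Per 100 protein-coding genes they were most frequent on chromosomes 21 (11.7), 5 (9.51) and 4 (7.79) and least frequent on chromosomes 10 (1.91), 22 (2.00) and 16 (2.11). All gained 1 kb promoter regions, beside or over the start, numbered 84, 337 and 221 on the first 3, with 239, 904 and 770 protein-coding genes. On the last 3 they numbered 64, 39 and 75, with 734, 451 and 854 genes. The contrast between these chromosomes is thus not particular to regions beside the start. The share of gained 1 kb promoter regions that lay beside rather than over the start was between 17.1% on chromosome 14 and 39.6% on chromosome 20. Chromosome 13 had 16 upstream and 5 downstream regions (76.2% upstream, 95% Clopper-Pearson interval 52.8 to 91.8%), and chromosome 14 had 6 and 14 (30.0%, 11.9 to 54.3%). They are named as the highest and lowest upstream shares of the 22 chromosomes, and the intervals do not allow for that choice. On chromosome 7, which was left out, 118 such regions had a median log2 fold of 1.08.

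Decreased regions beside a start were few, 7 upstream and 14 downstream on all chromosomes, with a median log2 fold of −0.97. BCL6B (28.3 to 8.02 reads, −1.30), SERPINB9 (9.87 to 2.00 reads, −1.10) and TPBGL (8.74 to 1.16 reads, −1.04) fell downstream in the authors' deposited table, and ZNF181 fell upstream (13.2 to 3.47 reads, −1.15). The median distance of all 21 decreased regions from the start was 520 bp, against 232 bp for the 938 gained regions, and no test of this difference was made.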

How the data were processed

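ATAC-seq libraries (4 control, 3 PHF19 shRNA) were summarised by the authors in lists of increased and decreased regions. Per the file headers, the deposited means are log2 of normalised read counts, shown here as reads; the deposited fold is a log2 value, and each region has a p-value and an FDR from the authors. The deposited annotation gives distance and width in base pairs. Per the submitters' processing notes, MACS2 2.2.6, deepTools 1.5.12, Bowtie2 2.4.1 and Picard 2.2.4 were used, with no role or setting. The tool for the folds, the normalisation, any transposase shift and the merging of regions are stated neither in the labels nor in the file headers, and the balance of gained and lost regions can depend on them. The notes name hg38, but only 0.114% of matched regions had a start equal to a GRCh38 start, so coordinates are read as hg19. In the deposited means, the knockdown column carried a weight of 0.429 in the mean over all libraries, the share of 3 among 7, and the names of the lists give the direction.

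Regions were pooled, filtered and compared with scipy 1.17.1, numpy 2.4.6 and pandas 2.3.3 under Python 3.11.15, and drawn with matplotlib 3.10.9. The number of tested regions was recovered from FDR, rank and p-value, a step tested on simulated data. The simulated list had no limit on the fold. The distance was recomputed from the coordinates and equalled the deposited one in 100% of 4079 regions. Shares have exact 95% Clopper-Pearson intervals (counting error only; nearby regions are not independent). No test was run, since the contrast chose the regions. Named are the 10 largest folds and 3 smallest FDR per side, the 6 genes on both sides with the largest summed fold, genes with 3 regions, the regions at the 1 kb limit, up to 4 genes per list and side, and 5 decreased regions; a few of the regions this rule names are not reported here. The regions, the 19 gene lists and the motifs were chosen with earlier results of these data known. Alternatives varied the FDR, fold, reads, distance, chromosome 7 and the unit counted.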

Additional observations from a re-analysis of the deposited data

How the results depend on the processing

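No replicate was left out and no paired analysis was possible because the tables hold group means only. No region had a control mean at the floor, and the median width was always 401 bp, so 33 of the values by side could not move. Of the others, 82 stayed within the 95% interval of the reported value (a count, within 1.5 times it), 34 moved out of it and 2 turned direction. With an FDR of at most 0.01, 439 regions were left, the median log2 folds were 0.99 upstream and 1.07 downstream, the read counts 39.5 and 24.99, and 36.7% of downstream genes had a gained region over a start. With a log2 fold of at least 1, 323 regions were left and 37.8% were upstream; the medians were 1.12 and 1.12 (downstream minus upstream −0.001, a turn of direction), the read counts 25.6 and 15.5, and the shares over a start 28.1% and 40.6%. With at least 10 reads the downstream median was 0.93 and its read count 22.8. Measured from the midpoint, the regions that cover the start enter: 3525 regions, 62.1% upstream, log2 folds 0.86 and 0.90, reads 39.1 and 28.1, shares over a start 84.1% and 74.9%, and 33.0% of upstream genes with a divergent neighbour. Within 500 bp the upstream share over a start was 12.2%, and with genes of 1 listed start (chosen after seeing the data) 12.5% and 27.6%. The difference of the log2 group means gave 1.06 and 1.26, a difference of 0.20. Within read classes, chosen after seeing the data, the difference was 0.039 up to 10 reads, 0.021 from 10 to 20, 0.024 from 20 to 40, 0.0046 from 40 to 80 and, turned, −0.026 above 80. Of the motif shares, 31 stayed within their interval and 13 did not. With genes of 1 promoter entry (chosen after seeing the data), GC boxes were in 82.1% and 72.3%. They were in 58.7% of all such protein-coding genes and 75.1% of those genes with a gained region over the start. Moves over 1.5 times were those of the ETS core upstream, AP-1 on both sides and the cAMP response element and NRF1 downstream (1 entry), and YY1 on both sides (250 bases). Counting any gained promoter region within 1 kb instead changed 18 of the list counts by over 1.5 times.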

Other observations

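MicroRNA genes contributed 14 of the regions, at 13 hairpin genes, and the sides refer to the hairpin. In the authors' deposited table the largest fold was at MIR3124, 109 bp downstream, with 27.7 reads after knockdown and 8.62 in control cells (log2 fold 1.33). MIR3960 had 83.3 and 30.1 reads 75 bp upstream (1.27). MIR3190 had 2 upstream regions, at 110 bp (21.6 and 6.35 reads, 1.25) and 516 bp (33.0 and 14.8 reads, 0.91). The fold at MIR1537, 742 bp downstream, rests on 7.68 and 1.21 reads (1.12).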
